A study of Mus musculus with 2 samples.

Results

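The G2 and mitosis genes are a set of 52 genes from a widely used list for scoring the cell cycle in single cells, whose transcripts accumulate in dividing cells between the end of DNA synthesis and cell division. Members were taken from that list by name and not from their values here. All 52 of 52 were present among the 27998 genes of the count matrices. Their levels were read in crypt cells of the jejunum, the middle part of the small intestine, across the 10 cell types that the submitters had annotated.

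The cells came from 2 male mice, each 12 months old, that lacked the microRNA miR-375 in the whole body after CRISPR deletion. The strain was labelled C57BL6/2J, and the line went back to founders of mixed FVB and B6 origin that were bred for at least 3 generations to B6 albino mice. Crypts were freed with EDTA and then digested with dispase. Each mouse gave 1 droplet library that counts the 3′ ends of transcripts as unique molecules (UMIs). Both libraries belong to the knockout group and no wild type library was analysed here, so every comparison below is between cell types within knockout mice and none measures the loss of miR-375.

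A cell that has copied its DNA enters mitosis when the kinase CDK1, bound to a B-type cyclin, becomes active. Aurora kinases and the chromosomal passenger complex correct faulty attachments of chromosomes to the spindle, kinetochore proteins hold the microtubules, and kinesin motors push the spindle poles apart. The anaphase-promoting complex, switched on by CDC20, then marks securin and cyclin B for destruction, after which chromosomes separate and the cell divides. In the intestinal crypt the stem cells at the base divide, their transit amplifying (TA) offspring divide rapidly, and most cells that reach the villus have left the cell cycle.

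Mouse 1 contributed 2082 annotated cells with a median of 16475 UMIs, and mouse 2 contributed 1193 cells with a median of 15232 UMIs. No cell barcode was shared between the libraries. TA cells numbered 320 and 323, stem cells 139 and 117, goblet progenitors 162 and 84, secretory progenitors 31 and 19, and intraepithelial lymphocytes (IEL) 50 and 18. Tuft cells, IEL, Paneth cells, hormone-secreting enteroendocrine cells (EEC), goblet cells and enterocytes each had all 6 of their markers highest in their own type in both mice, as were 5 of 6 stem markers. The TA label rested on less: of 5 markers that are not members, Dmbt1 alone peaked there in both mice, and Pcna, Mcm4, Stmn1 and Tubb5 did not. None of the 4 goblet progenitor markers peaked in that type. The types were defined by the submitters from these same cells and from variable genes that can include the members, so a call between types describes how far the annotated classes stood apart and is not independent of the annotation.

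Summed over all 52 members, the level was highest in TA cells of both mice. It is given in CPM, the UMIs of a gene or list in all cells of 1 type in 1 mouse, scaled to the same total for every type and mouse. The TA sums stood at 8758 CPM in mouse 1 (95% Poisson interval 8695 to 8822) and 7025 CPM in mouse 2 (6957 to 7094). Goblet progenitors followed at 6565 and 5300 CPM. Tuft cells held 4437 and 3038 CPM, IEL 4060 and 4458, secretory progenitors 2953 and 2829, and stem cells 2581 and 1805. EEC were at 1827 and 1128 CPM, goblet cells at 1163 and 1209, and enterocytes at 880.0 and 894.7. TA cells and goblet progenitors thus stood above all other epithelial types in both mice; goblet cells stood above enterocytes in both as well. Intervals cover counting error only.

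Paneth cells were listed at 95.02 and 109 CPM, but this low value depends on scale. Paneth cells are known for abundant granule transcripts, and the trimmed mean (TMM) factors, which correct for composition, were 0.156 and 0.121 there, against 0.952 to 1.59 in the other epithelial types. Divided by these factors, the Paneth sums were 610 and 897 CPM and the enterocyte sums 869 and 832, so the Paneth sum was lower in mouse 1 and higher in mouse 2. The tuft level also depended on 1 gene: Tubb4b, a beta tubulin of the spindle and of stable microtubules, gave 36.6% and 26.6% of the summed UMIs in tuft cells against 11.9% and 5.72% in TA cells. Without Tubb4b the tuft sums were 2812 and 2229 CPM. In enterocytes of mouse 1, Tubb4b made up 52.2% of the sum.

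**Figure D1:**
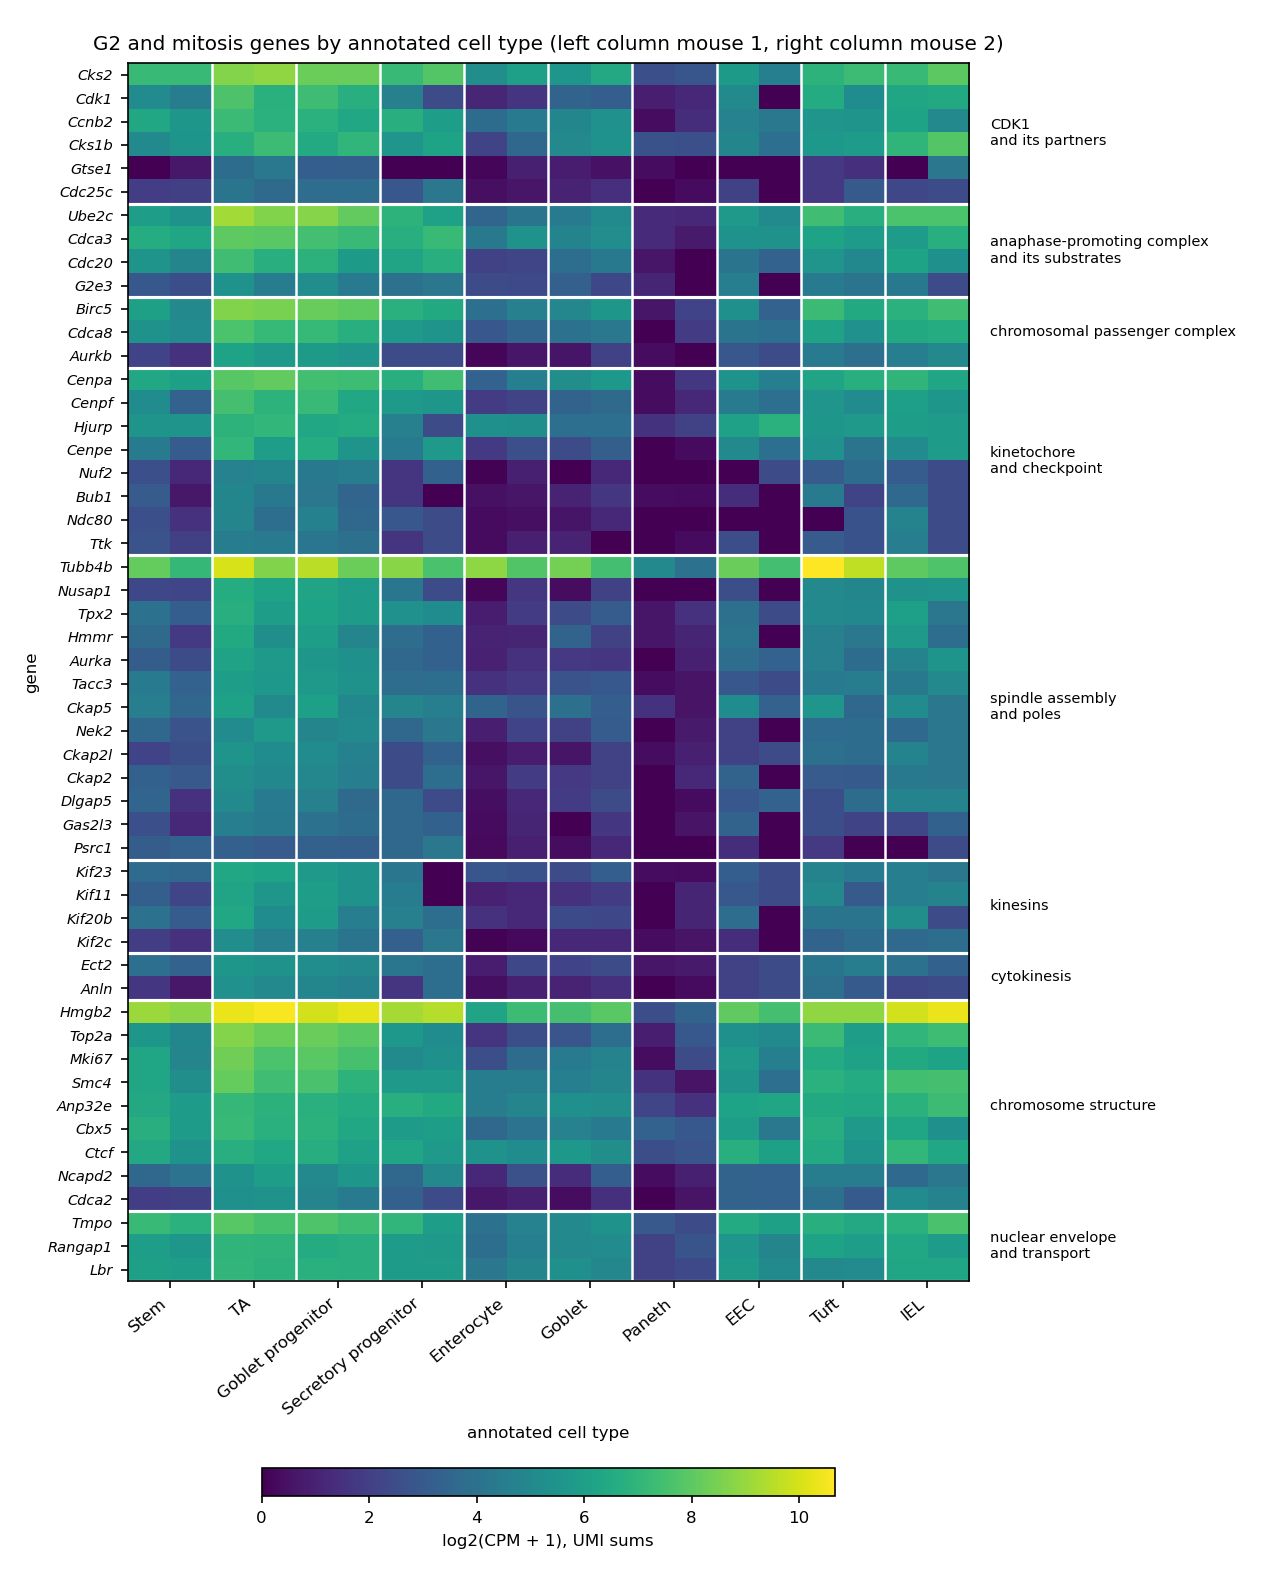
Level of each of the 52 members as log2(CPM + 1) of summed UMIs (colour), with genes in rows by role and the 10 annotated types in columns, mouse 1 left and mouse 2 right within each type. The TA and goblet progenitor columns are bright for most genes, Paneth columns are dark, and Tubb4b stands out in tuft cells.

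The members' TA levels were compared with those of the 8 other epithelial types, averaged, with the sums of the 2 mice as replicates and the mouse as a term (edgeR's quasi-likelihood test, Benjamini-Hochberg adjustment over 11013 genes). All 52 members were called higher in TA cells at an adjusted p under 0.05, where 19.2% of all genes tested were called higher and 13.6% lower. The median log2 fold change of the members was 2.51, which is 5.71-fold, and that of all genes tested was 0.05. It was 2.85 in mouse 1 alone and 2.20 in mouse 2 alone. With cells thinned to 5000 UMIs it was 3.25 over the 48 members still tested, a different gene set. All 52 differences were above 0 in each mouse alone. In 48 of 52 members TA was the highest epithelial type in both mice. For 24 the lower of the 2 TA sums exceeded every sum of the other epithelial types. Counts of this kind between cell types, here and below, were not made over all genes tested and describe the members only. Goblet progenitors came second after TA for 48 members in mouse 1 and 43 in mouse 2. No member was at 0 UMIs in TA cells or goblet progenitors, whereas 4 members had no UMI in Paneth cells of either mouse (Ndc80, Nuf2, Nusap1 and Psrc1) and 2 had none in EEC (Gtse1 and Ndc80, the former also at 0 in secretory progenitors). The fitted folds of these 5 genes depend on the prior count in comparisons that include those types, and are not read as sizes there. Zeros in EEC and secretory progenitors also rest on small sums. There 3 UMIs equal 4.83 and 13.9 CPM in EEC and 6.52 and 13.4 in secretory progenitors, against 0.355 and 0.525 in TA cells. The Paneth zeros depend on scale as well. Divided by the TMM factor, the 3 UMIs of Cdk1 in Paneth cells of mouse 1 equalled 5.48 CPM.

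The promoters of members whose patterns recur below are shown because most of these genes move together across cell types. Genes of mitosis are known as a class for a cell cycle homology element, TTTGAA or TTTAAA, and for CCAAT boxes, which bind the factor NF-Y. RefSeq promoters (GRCm38.p6, the build called mm10, 250 bases before to 50 bases after the transcription start) were found for 46 of 52 members. Capitals mark copies of these motifs on either strand, and in Ube2c a pair of CCAAT copies on opposite strands overlap. The windows are Ube2c (chr2:164769679-164769978, plus strand), Top2a (chr11:99024140-99024439, minus strand), Cdc20 (chr4:118437294-118437593, minus strand), Ccnb2 (chr9:70421505-70421804, minus strand), Psrc1 (the first of 2 entries, chr3:108383554-108383853, plus strand) and Tubb4b (chr2:25224653-25224952, minus strand).
Ube2c: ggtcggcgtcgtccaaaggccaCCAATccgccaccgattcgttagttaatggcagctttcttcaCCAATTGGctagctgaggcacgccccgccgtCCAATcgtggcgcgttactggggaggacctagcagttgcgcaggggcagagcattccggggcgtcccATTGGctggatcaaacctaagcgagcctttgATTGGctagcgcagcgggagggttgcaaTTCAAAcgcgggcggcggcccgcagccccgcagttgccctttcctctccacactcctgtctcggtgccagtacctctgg
Top2a: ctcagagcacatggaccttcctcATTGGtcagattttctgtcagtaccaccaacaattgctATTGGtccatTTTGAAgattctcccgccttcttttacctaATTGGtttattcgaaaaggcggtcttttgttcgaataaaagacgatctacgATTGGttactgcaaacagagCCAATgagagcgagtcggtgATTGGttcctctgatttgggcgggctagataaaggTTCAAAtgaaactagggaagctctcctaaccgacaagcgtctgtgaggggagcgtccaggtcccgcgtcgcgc
Cdc20: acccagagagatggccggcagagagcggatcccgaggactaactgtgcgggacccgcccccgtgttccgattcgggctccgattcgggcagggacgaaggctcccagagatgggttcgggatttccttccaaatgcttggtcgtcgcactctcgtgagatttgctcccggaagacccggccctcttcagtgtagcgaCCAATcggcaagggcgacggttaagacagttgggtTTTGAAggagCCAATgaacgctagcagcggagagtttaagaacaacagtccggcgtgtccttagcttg
Ccnb2: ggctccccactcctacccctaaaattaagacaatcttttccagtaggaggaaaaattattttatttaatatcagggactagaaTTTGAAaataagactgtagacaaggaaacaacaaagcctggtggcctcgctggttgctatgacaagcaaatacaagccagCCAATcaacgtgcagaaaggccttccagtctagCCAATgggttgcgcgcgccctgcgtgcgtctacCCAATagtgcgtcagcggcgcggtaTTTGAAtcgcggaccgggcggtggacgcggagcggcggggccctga
Psrc1: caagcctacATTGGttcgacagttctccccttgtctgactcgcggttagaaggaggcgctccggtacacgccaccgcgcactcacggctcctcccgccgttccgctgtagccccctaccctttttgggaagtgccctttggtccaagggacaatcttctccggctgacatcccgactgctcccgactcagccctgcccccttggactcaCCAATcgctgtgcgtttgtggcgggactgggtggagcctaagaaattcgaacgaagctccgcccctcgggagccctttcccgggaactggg
Tubb4b: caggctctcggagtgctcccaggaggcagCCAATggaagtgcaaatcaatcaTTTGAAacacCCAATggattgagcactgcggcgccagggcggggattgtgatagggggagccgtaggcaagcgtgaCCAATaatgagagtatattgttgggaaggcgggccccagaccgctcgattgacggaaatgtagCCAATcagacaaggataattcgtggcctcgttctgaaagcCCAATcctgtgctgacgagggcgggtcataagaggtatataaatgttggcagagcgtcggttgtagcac

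Of the 46 members, 33 (71.7%) held TTTGAA on either strand, against 14.3% of the 8472 tested genes with a promoter, 20.2% of all 27025 genes of the table and 6 of 30 S phase genes (20%). TTTGAA that begins at most 60 bases before the start, or after it, was in 26 members (56.5%) and in 4.36% of the tested genes. CCAAT was present in 35 members (76.1%), 21 of 30 S phase genes (70%) and 43.1% of tested genes, so it was common in both cell cycle lists. At least 2 copies of CCAAT were in 28 members (60.9%) and in 17.1% of tested genes. Among the promoters shown, TTTGAA begins 29 bases before the start in Ube2c, 23 in Top2a and 18 in Cdc20, and at base 5 of the transcript in Ccnb2. Psrc1 has neither TTTGAA nor TTTAAA in its windows, and the single TTTGAA of Tubb4b begins 198 bases upstream. The median GC content was 59.7% in the members and 62% in the tested genes. A match is a run of letters and not a measured binding site.

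CDK1 and its partners were called higher in TA cells for 6 of 6 members. Cdk1, the kinase itself, had 207 and 109 CPM in TA cells, 34.2 and 21.2 in stem cells and 1.24 and 2.06 in enterocytes. Its log2 fold change over the other epithelial types was 3.01 ± 0.17 (SE), with an adjusted p of 1.36e-12. Cks2, a small subunit that binds CDK1, was at 412 and 480 CPM in TA cells, 145 and 150 in stem cells and 37.3 and 63.4 in enterocytes. Ccnb2, cyclin B2, changed less: it stood at 152 and 110 CPM in TA cells but also at 106 and 62.5 in secretory progenitors and 83.0 and 48.6 in stem cells.

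Among regulators and substrates of the anaphase-promoting complex, 4 of 4 were called higher. Ube2c, the enzyme that supplies ubiquitin to this complex, had 581 and 397 CPM in TA cells, 59.4 and 43.0 in stem cells, and 10.1 and 16.1 in enterocytes. The 3 types did not overlap, and the log2 fold change over the other epithelial types was 3.14 ± 0.15 (adjusted p 6.44e-13). Cdca3, a trigger of mitotic entry, stood at 257 and 247 CPM in TA cells, 95.3 and 76.05 in stem cells and 18.9 and 43.6 in enterocytes. Cdc20, the activator of the complex, was an exception in mouse 2, where secretory progenitors had 103 CPM (23 UMIs, 95% interval 65.1 to 154) beside 101 in TA cells (93.2 to 110). Those intervals overlap, while in mouse 1 TA cells were higher at 169 against 73.8 CPM.

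The chromosomal passenger complex was called higher for 3 of 3 members. Birc5, the survivin subunit, had 397 and 364 CPM in TA cells and 66.7 and 31.2 in stem cells. Cdca8, the borealin subunit, had 201 and 143 CPM in TA cells and 43.2 and 34.3 in stem cells. Aurkb, the kinase of the complex, had few UMIs in stem cells and enterocytes: 71.4 and 53.9 CPM in TA cells stood against 3.36 and 1.87 in stem cells (6 and 3 UMIs) and 0.155 and 0.561 in enterocytes (3 and 3 UMIs).

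Kinetochore and checkpoint genes were called higher for 8 of 8. Cenpa, the histone H3 variant of centromeres, had 239 and 276 CPM in TA cells and 81.3 and 66.7 in stem cells. Cenpf, which coats the outer kinetochore, had 184 and 118 CPM in TA cells and 35.3 and 9.35 in stem cells. Hjurp, the chaperone that loads CENP-A, did not follow the rest: beside 118 and 133 CPM in TA cells it had 67.7 and 111 in EEC, 40.1 and 38.5 in enterocytes and only 13.7 and 13.9 in goblet cells.

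Spindle genes were called higher for 13 of 13. Nusap1, which bundles spindle microtubules, had 95.5 and 71.5 CPM in TA cells and 3.92 and 3.74 in stem cells. Tpx2, which activates Aurora A on the spindle, had 101 and 61.7 CPM in TA cells and 14.6 and 8.10 in stem cells. The smallest change of the group was that of Tubb4b, with 1043 and 402 CPM in TA cells, 280 and 135 in stem cells, and 1625 and 809 in tuft cells. Its log2 fold change over the other epithelial types was 0.90 ± 0.11 (adjusted p 5.16e-08), and the adjusted p rose to 0.146 without the mouse term.

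All 4 kinesins and both cytokinesis genes were called higher. Kif23, a motor of the central spindle, had 81.9 and 71.0 CPM in TA cells and 12.3 and 11.2 in stem cells. Kif20b and Kif11, motors of the late and the early spindle, had 80.8 and 35.0 CPM and 74.9 and 49.7 CPM in TA cells, with 14.6 and 7.48 and 8.41 and 3.74 in stem cells. Ect2, which activates RhoA at the division furrow, had 49.2 and 44.2 CPM in TA cells and 14.01 and 9.35 in stem cells. Anln, the scaffold anillin of the contractile ring, had 40.6 and 31.8 CPM in TA cells against 4 UMIs and 1 UMI in stem cells (2.24 and 0.623 CPM).

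Chromosome structure genes were called higher for 9 of 9 and those of the nuclear envelope and its transport for 3 of 3, with the latter having the smallest median, 1.31 on the log2 scale. Hmgb2, a DNA-bending protein of open chromatin, gave the most UMIs of the group, with 1311 and 1493 CPM in TA cells, 534 and 449 in stem cells and 73.0 and 160 in enterocytes. Top2a, the topoisomerase that untangles sister chromatids, had 406 and 310 CPM in TA cells, 49.3 and 28.7 in stem cells and 2.01 and 4.86 in enterocytes. Mki67, which coats mitotic chromosomes, had 327 and 199 CPM in TA cells and 75.7 and 28.1 in stem cells. The insulator protein gene Ctcf changed least of all members, with 106 and 80.4 CPM in TA cells, 85.2 and 44.3 in stem cells and 105 and 65.0 in EEC (log2 fold change 0.51 ± 0.14, adjusted p 0.00477). Tmpo, Lbr and Rangap1, genes of the inner nuclear membrane and of nuclear transport, had TA levels of 237 and 189, 127 and 116, and 126 and 121 CPM.

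Psrc1, a spindle-associated gene, and Cdc25c, a phosphatase that activates CDK1, completed the 4 members that did not peak in TA cells of both mice. Psrc1 had 8.65 and 7.34 CPM in TA cells, 7.85 and 9.35 in stem cells, 8.56 and 8.40 in goblet progenitors, and 10.9 and 17.9 in secretory progenitors. The last of these rest on 5 and 4 UMIs (95% intervals 3.53 to 25.3 and 4.86 to 45.7 CPM), so its order among these 4 types was not resolved at this depth. Cdc25c was highest in TA cells of mouse 1 (16.2 CPM) and in secretory progenitors of mouse 2 (17.9 CPM, 4 UMIs), where TA cells had 11.9.

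Set against stem cells alone, TA cells had more of almost all members. Of 52 members, 47 were called higher (edgeR quasi-likelihood), where 2.93% of all genes tested were called higher and 1.9% lower; the remaining 5 were not called. The median log2 fold change was 2.15, or 4.44-fold, with 1.99 in mouse 1 and 2.18 in mouse 2. CPM was higher in TA than in stem cells of both mice for 51 members. Without the mouse term 18 members were called, and with the DESeq2 Wald test 42 were. The summed level of TA cells was 3.39 times that of stem cells in mouse 1 and 3.89 times in mouse 2.

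The members not called were Psrc1 (log2 fold change -0.21, adjusted p 0.872), Ctcf (0.43, 0.261), Cbx5 (0.55, 0.139), Tmpo (0.58, 0.105) and Mki67 (2.21, 0.064). Cbx5 encodes the heterochromatin protein HP1 alpha. Mki67 missed the threshold at a fold change close to the median of the members, and its SE was 0.55. The largest differences were those of Gtse1, a regulator of microtubules and p53 (5.40 ± 0.81), Anln (4.46 ± 0.47) and Aurkb (4.42 ± 0.38). Gtse1 had 107 and 106 UMIs in TA cells and 0 and 1 in stem cells, so its fitted value depends on the prior count and is not a size. By role, all CDK1 partners, anaphase-promoting complex genes, passenger subunits, kinetochore genes, kinesins and cytokinesis genes were called, beside 12 of 13 spindle genes, 6 of 9 chromosome structure genes and 2 of 3 nuclear envelope genes.

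Genes of DNA synthesis did not separate TA from stem cells in the same way. The summed level of 42 S phase genes was 2195 and 1570 CPM in TA cells and 2287 and 1568 in stem cells, a ratio of 0.960 in mouse 1 and 1.001 in mouse 2. Of these 42 genes, 7 were called higher in TA cells and 5 lower, with a median log2 fold change of -0.16. Rrm2, a subunit of ribonucleotide reductase, was higher (2.48 ± 0.34), and Ung, the uracil glycosylase, was lower (-1.84 ± 0.31). As a result the ratio of summed members to summed S phase genes was 3.99 and 4.47 in TA cells and 1.13 and 1.15 in stem cells, and the latter was the lowest ratio of any type in both mice. In a further list of 63 tested G2/M genes outside the members, 48 were called higher in TA than in stem cells, with a median of 2.11. It included Plk1, the Polo kinase (3.66), Ccnb1, cyclin B1 (2.39), and Foxm1, a transcription factor of mitotic genes (2.13).

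**Figure D2:**
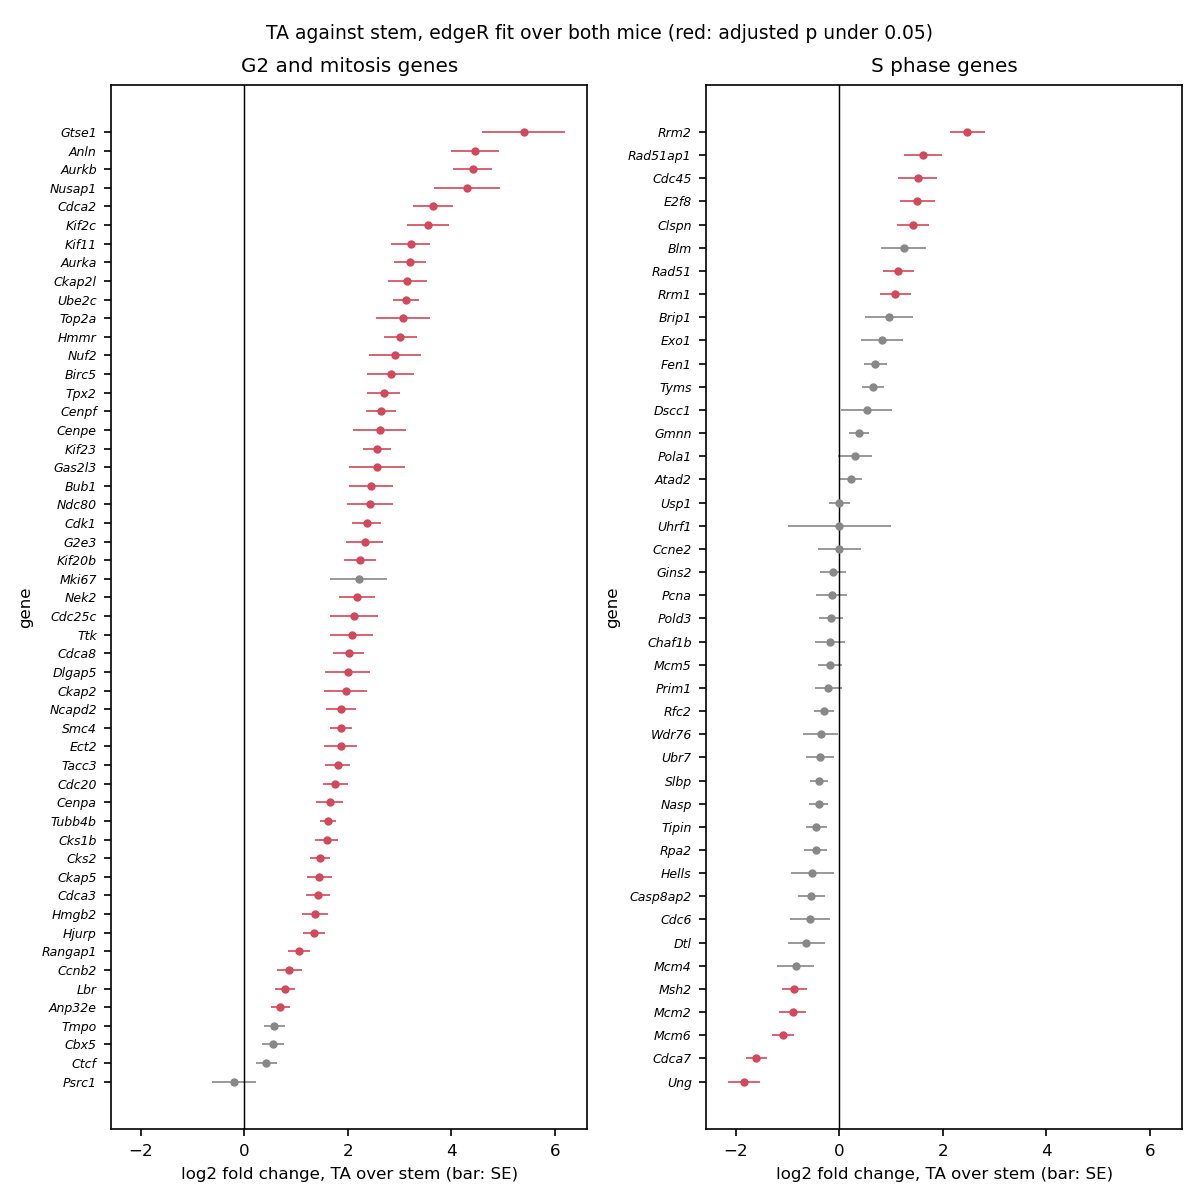
Log2 fold change of TA over stem cells from the edgeR fit for the 52 members (left) and the 42 S phase genes (right), with 1 gene per row, bars of 1 SE and adjusted p under 0.05 in red. The members lie to the right of 0 with the exception of Psrc1, while S phase genes spread from -1.84 to 2.48.

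The boundary between the stem and TA classes has to be read with this comparison, because the class called TA contained cells with stem markers. It was made of 4 clusters in the submitters' annotation. TA cluster 13, with 53 cells in each mouse, had Lgr5, the receptor that marks crypt stem cells, at 43.2 and 41.2 CPM, beside 54.9 and 28.1 in the stem cluster and at most 3.27 in the other TA clusters. Ascl2, the stem cell transcription factor, was at 74.2 and 81.4 CPM there and at 59.98 and 59.8 in the stem cluster. All 52 members were higher in TA cluster 13 than in the stem cluster in both mice, and its summed member level was 8817 and 6933 CPM. Its median ratio over the stem cluster was 4.39 in mouse 1 and 6.72 in mouse 2, values given without a test since clusters were drawn on such genes. When cluster 13 was left out of the TA sums, a choice made after seeing the data, 48 members were called higher than in stem cells and the median was 2.17.

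The other TA clusters differed in which members were high. Cluster 10 had the highest S phase sums of any cluster, 4166 and 3210 CPM, and the lowest member sums among TA clusters, 5351 and 4735. Cluster 5 had the highest member sums of all, 11328 and 8786 CPM, with S phase at 1721 and 1129. Cluster 8 had members at 6565 and 5935 CPM with S phase at only 893 and 755. The enterocyte gene Fabp1, a fatty acid carrier, was at 804 and 382 CPM there. It was at 467 and 132 CPM in cluster 5 and at 512 and 112 in cluster 10. Fabp1 was not particular to cluster 8, since tuft cells had 256 and 1248 CPM. Enterocyte cluster 1 had 39426 and 31536 CPM. In both mice, 50 of 52 members were lower in cluster 10 than in cluster 5, and 46 were lower in cluster 8 than in cluster 5.

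**Figure D3:**
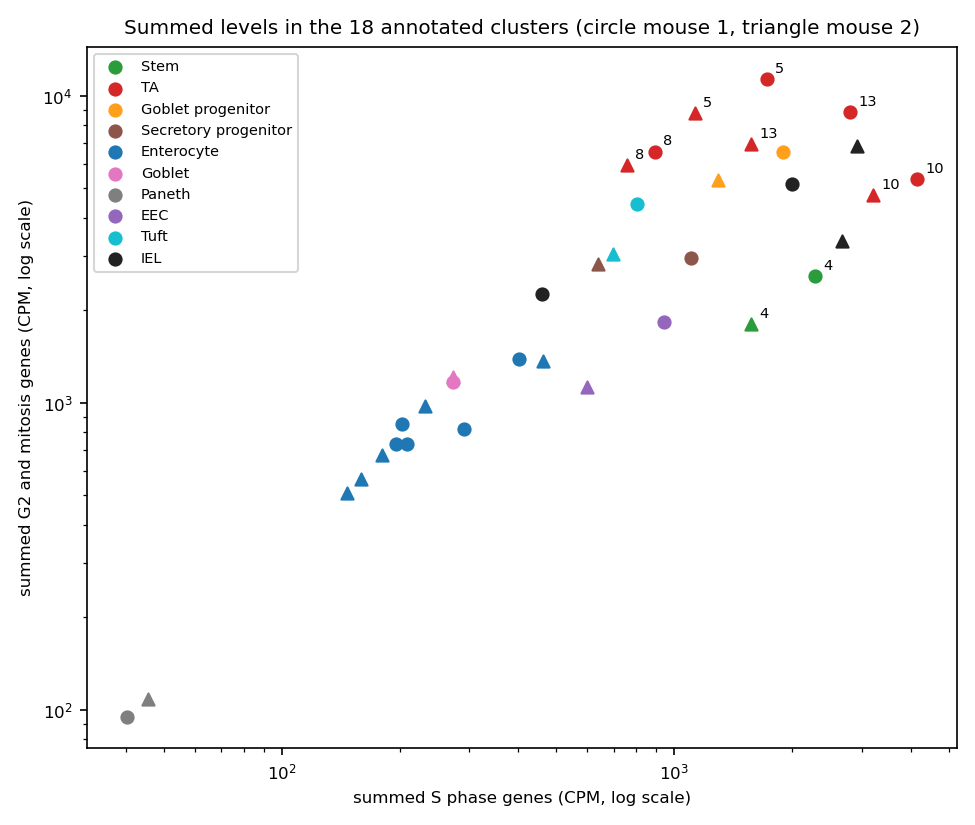
Summed CPM of the members (vertical, log scale) against summed CPM of S phase genes (horizontal, log scale) for the 18 clusters in each mouse, with circles for mouse 1, triangles for mouse 2 and the stem (4) and TA (5, 8, 10, 13) clusters numbered. Stem cells lie below TA clusters at similar S phase levels, and Paneth cells lie at the lower left.

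Between clusters 8 and 10 the members parted by gene: 26 were higher in cluster 8 in both mice, 20 were lower in both, and 6 differed in direction. Cdc20 had 211 and 146 CPM in cluster 8 against 44.9 and 31.1 in cluster 10. Ccnb2 had 189 and 181 CPM against 48.2 and 36.0, and Cenpa 253 and 351 against 66.0 and 76.9. In cluster 5, Cdc20 had 225 and 123 CPM, Ccnb2 193 and 117, and Cenpa 319 and 339, so Ccnb2 of mouse 2 was 1.55 times higher in cluster 8 than in cluster 5. Top2a went the other way, with 115 and 79.7 CPM in cluster 8, 337 and 330 in cluster 10, and 548 and 389 in cluster 5. Aurkb showed the same order, with 18.5 and 12.7, 56.8 and 48.3, and 95.3 and 78.5 CPM. Cdk1 had 90.2 and 43.2 CPM in cluster 8 and 170 and 95.7 in cluster 10. Ube2c was low in both, at 349 and 211 and at 205 and 151 CPM, beside 894 and 616 in cluster 5. Cbx5 was at least as high in cluster 10 (162 and 132 CPM) as in cluster 5 (147 and 113).

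**Figure D4:**
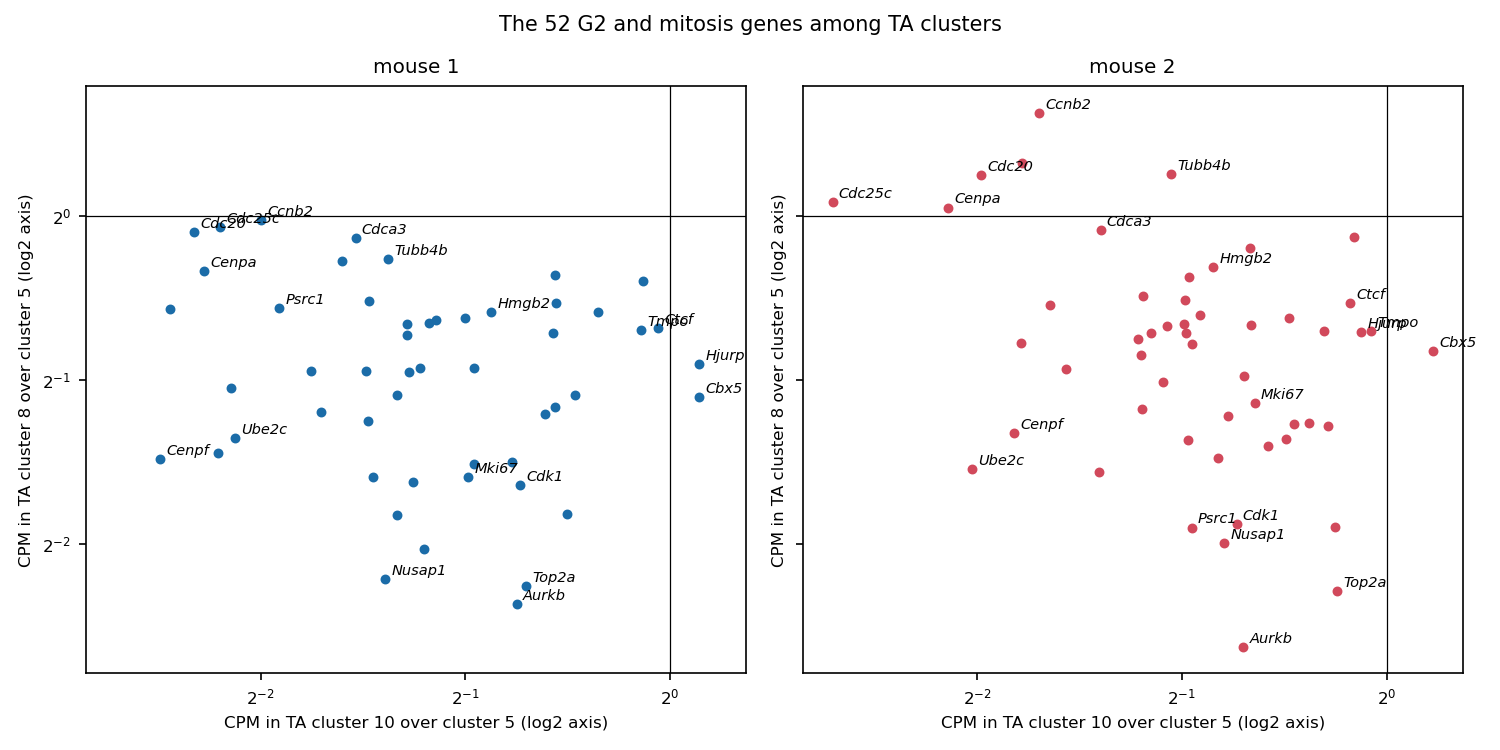
Each point is a member, with its CPM ratio of TA cluster 10 over cluster 5 (horizontal, log2 axis) and of cluster 8 over cluster 5 (vertical, log2 axis), mouse 1 left and mouse 2 right, and lines at a ratio of 1. Cdc20, Ccnb2, Cenpa and Cdc25c lie at the upper left, and Top2a, Aurkb and Cdk1 at the lower middle to right, in both mice.

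Correlations across single TA cells were computed as a description. Each cell was thinned at random to 5000 UMIs, and Spearman's rho was computed in 320 cells of mouse 1 and 323 of mouse 2, which share library and depth. Ube2c tracked the sum of the other members most closely, with rho of 0.65 and 0.61, followed by Hmgb2 at 0.55 and 0.49. Cks2 had 0.47 and 0.47 and Birc5 0.45 and 0.46. Cbx5 (0.14 and -0.05) and Lbr (0.11 and 0.008) were among the lowest in both mice, while Ncapd2, a condensin subunit, was low in mouse 1 alone (-0.005 and 0.21). With the S phase sum, Cenpa had rho of -0.38 and -0.42 and Cdca3 -0.35 and -0.29, while Top2a had 0.24 and 0.28. The summed members had -0.15 and -0.27 with the S phase sum. Most values are weak, as sparse counts allow, and describe these cells only.

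Per cell, TA cells and goblet progenitors had the most members with a UMI among epithelial types. At 5000 UMIs, the median TA cell had 20.5 members detected in mouse 1 and 18 in mouse 2, goblet progenitors 18 and 14, stem cells 7 and 4, secretory progenitors 5 and 4, and enterocytes 2 and 2. In Paneth cells the median was 0 and 0. At least 10 members, a limit chosen after seeing the data, were detected in 95.3% of TA cells of mouse 1 (exact 95% interval 92.4 to 97.4) and 91.6% of mouse 2 (88.1 to 94.4). Goblet progenitors reached 76.5% and 66.7%, stem cells 28.7% and 12.8%, secretory progenitors 25.8% and 31.6%, and enterocytes 1.94% and 4.97%, so the order of stem cells and secretory progenitors differed between the mice. The 39 stem cells of mouse 1 past this limit held 59.1% of the member UMIs of all thinned stem cells, and the 15 of mouse 2 held 39.6%. Thinning left out 46 cells below 5000 UMIs, 39 of them IEL of mouse 1. Without thinning the medians were 40 and 33 in TA cells, 12 and 9 in stem cells, 5 and 5 in enterocytes and 3 and 4 in Paneth cells.

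In several other types a minority of cells carried much of the level. In goblet cells 7.61% and 10.1% of cells had at least 10 members, and these held 43.8% and 50.2% of the member UMIs. In tuft cells 4 of 39 and 8 of 38 cells passed, with 36.7% and 52.9% of the UMIs. Their depth differed from the rest: the median before thinning was 30628 and 21592 UMIs in these tuft cells against 8598 and 12662 in the others. Among EEC 2 of 53 and 2 of 20 cells passed, with medians of 44856 and 15234 UMIs against 7330 and 9390. In goblet cells no such gap was seen, with 12085 and 14732 UMIs against 14081 and 15756. Doublets had been removed by the submitters, and the part of remaining doublets in the tuft and EEC values was not tested. Of IEL, 4 of 11 and 5 of 18 cells passed, with medians of 13071 and 12274 UMIs against 7143 and 9183 in the others. In the sums, 40 of 52 members were higher in IEL than in stem cells in both mice. This was not tested and was not counted over all genes. Many IEL values rest on few UMIs, as 3 UMIs equal 11.4 and 13.3 CPM there.

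**Figure D5:**
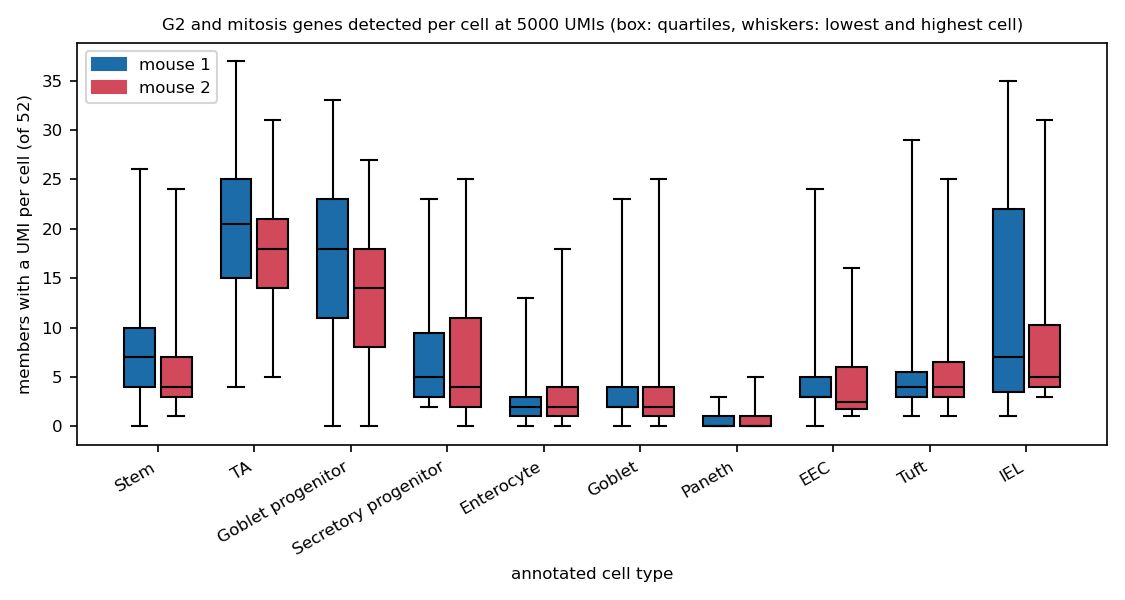
Number of the 52 members with at least 1 UMI per cell thinned to 5000 UMIs (vertical) by annotated type, mouse 1 in blue and mouse 2 in red, with boxes at the quartiles, a line at the median and whiskers to the lowest and highest cell. TA cells and goblet progenitors have medians from 14 to 20.5, and goblet and tuft whiskers reach 23 to 29 over medians of 2 to 4.

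The share of cells with a UMI differed by gene. Ube2c was detected in 77.2% and 68.7% of thinned TA cells, 62.3% and 48.8% of goblet progenitors and 21.3% and 12.8% of stem cells. In enterocytes, which have mostly left the cycle, the share was 3.98% and 5.76% (exact 95% intervals 2.82 to 5.44 and 3.64 to 8.59), and in Paneth cells 2 of 78 and 0 of 54 thinned cells had a UMI. Without thinning 5 of 78 and 5 of 54 Paneth cells had one (6.41% and 9.26%), at median depths of 44684 and 80820 UMIs, so the thinned Paneth values set no limit on expression. Median depth before thinning was 20811 and 16966 UMIs in TA cells and 16975 and 13405 in enterocytes. Unthinned shares were 92.8% and 88.2% in TA cells, 42.4% and 25.6% in stem cells and 11.5% and 10.47% in enterocytes. Top2a was detected in 69.1% and 67.5% of thinned TA cells, 19.1% and 11.1% of stem cells and 0.753% and 1.83% of enterocytes. The stem shares thus lay above those of enterocytes for both genes in both mice. Tubb4b went the other way, with 85.3% and 58.6% of thinned enterocytes against 54.4% and 38.5% of stem cells. Tmpo in mouse 1 was detected in 66.7% of goblet progenitors and 62.5% of TA cells.

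Compared with the mean of the 5 differentiated types, stem cells were higher for part of the members. Of 52, 22 were called higher (edgeR, where 19.1% of all genes tested were called higher) and 1, Tubb4b, was called lower (15.9% of all genes were). The median log2 fold change was 0.91, with 1.34 in mouse 1 and 0.47 in mouse 2. With each mouse taken alone, 32 of 52 differences were above 0 in both mice and 1 was below 0 in both. The other members differed in direction between the mice. Without the mouse term 14 members were called higher. Psrc1 (4.24 ± 0.71), Ndc80, a kinetochore subunit that grips microtubules (3.67 ± 1.07), and its partner Nuf2 (2.38 ± 1.11, adjusted p 0.102) had the largest values, and all 3 were at 0 UMIs in Paneth cells. Nuf2 was -0.49 in mouse 2 alone. Tubb4b was lower in stem cells by a log2 value of -0.80 ± 0.13 (adjusted p 1.56e-05), which came to 280 and 135 CPM in stem cells against 459 and 219 in enterocytes and 1625 and 809 in tuft cells. G2e3, a ubiquitin ligase of G2 (-0.50, adjusted p 0.408), and Gtse1 (-0.64, adjusted p 1) had the other smallest values.

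Other members called higher in stem cells included Cdc20 (1.95 ± 0.29), Hmgb2 (1.45 ± 0.18), Cdca3 (1.49 ± 0.22) and Tmpo (1.37 ± 0.17). The adjusted p of the 4 kinesins ran from 0.0609 to 0.492. S phase genes differed more in the same contrast: 41 of 42 were called higher, with a median of 2.39. Of the other G2/M genes, 31 of 63 were called higher and 2 lower, with a median of 1.28.

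The members also differed between goblet progenitors and goblet cells. Of 52 members, 51 were called higher in the progenitors, where 13.2% of all genes tested were called higher and 16% lower. The median log2 fold change was 2.71, or 6.53-fold, with 2.83 in mouse 1 and 1.99 in mouse 2. CPM was higher in goblet progenitors of both mice for all 52. The largest fitted values were those of Nusap1 (5.11 ± 0.72), Nuf2 (4.74 ± 0.70) and Aurkb (4.55 ± 0.39), all of which rest on few UMIs in goblet cells. Nuf2 had 100 and 37 UMIs in goblet progenitors and 0 and 3 in goblet cells, and Aurkb 296 and 76 against 2 and 7. Nusap1 had 74.6 and 57.6 CPM in goblet progenitors and 0.264 and 3.13 in goblet cells, which are 1 and 7 UMIs. Ctcf was not called (0.42 ± 0.20, adjusted p 0.119). Tubb4b (0.48 ± 0.15) and Anp32e, a histone chaperone (0.90 ± 0.19), were the smallest called values, and Tubb4b lost its call without the mouse term (adjusted p 0.679). The S phase list was called higher for 41 of 42 genes, with a median of 2.43.

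Secretory progenitors rested on 50 cells in all and gave less firm values. Against the mean of the differentiated types, 14 of 52 members were called higher (edgeR, where 5.61% of all genes tested were called higher and 4.08% lower). The median log2 fold change was 1.33, with 1.42 in mouse 1 and 1.10 in mouse 2. The count ranged from 9 with stricter cell filtering to 22 without the filter on low counts. Cdc20 (3.05 ± 0.37) was called with 34 and 23 UMIs, or 73.8 and 103 CPM, against 3.20 and 3.74 in enterocytes and 13.5 and 18.8 in goblet cells. Psrc1 (4.81 ± 0.999) was called on 5 and 4 UMIs. Ndc80 (4.19, adjusted p 0.0696) and Nusap1 (3.15, adjusted p 0.312) were not called, nor were the smallest values, Gtse1 with 0 UMIs in both mice, Hjurp (-1.14 ± 0.41, adjusted p 0.078) and Bub1, a checkpoint kinase (-0.50). Hjurp had 23.9 and 4.46 CPM there, which are below its enterocyte and EEC levels in both mice. In secretory progenitors 25.8% and 31.6% of cells had at least 10 members, and these cells held 68.4% and 84.1% of the member UMIs.

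The direction of the difference between the mice depended on the type. In TA cells 42 of 52 members had the higher CPM in mouse 1, in stem cells 43 and in goblet progenitors 43. Among differentiated types, EEC (43 of 52) and tuft cells (39) went the same way, whereas in enterocytes 8 of 52 were higher in mouse 1, in goblet cells 13 and in Paneth cells 15. Secretory progenitors were nearly even, with 29 higher and 22 lower in mouse 1. Over all genes tested, 60.2% were higher in mouse 1 in TA cells, 58.3% in stem cells and 61.0% in goblet progenitors. The share was 60.3% in EEC, 51.6% in tuft cells, 48.6% in enterocytes, 55.8% in goblet cells and 61.3% in Paneth cells. In secretory progenitors it was 55.5%, beside 55.8% of the members. Many Paneth values rest on few UMIs. The median mitochondrial percentage per cell also differed, at 10.2 in mouse 1 and 5.55 in mouse 2. There is 1 library per mouse, so these are values of the libraries with no test, and depth differed in the same direction in TA cells (medians of 20811 and 16966 UMIs) and in enterocytes (16975 and 13405). Tubb4b was 2.60 times higher in TA cells of mouse 1 and higher there in all 9 epithelial types, as was Ckap5, a microtubule polymerase (2.03 times). Nek2 and Cks1b, a centrosome kinase and a CDK1 subunit, had ratios of 0.653 and 0.659 and were lower in mouse 1 in 7 of 9 types.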

How the data were processed

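Single-cell libraries were made from jejunal crypts of 2 miR-375 knockout mice, 1 library per mouse. The authors aligned reads to mm10 with Cell Ranger 3.0.1 and deposited UMI counts per gene and barcode without normalization; Seurat 3.2.1 is also named in the submitters' processing notes. The authors kept cells with at least 1500 genes and at most 25 percent mitochondrial UMIs, a percentage deposited per cell, removed doublets and annotated types. Ambient RNA removal with SoupX is described, but which deposited table it was applied to is not given in the sources used here. Cells of the annotation table that belong to other series (2937) were not used, and the table of sctransform-corrected values and the doublet classes were not used.

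Counts of the 3275 kept cells were read from the matrices of each library and summed per mouse and annotated type. In these matrices 1103 of 2082 cells of mouse 1 and 255 of 1193 of mouse 2 had the annotated UMI total. The largest difference of a cell total was 1.27%. In the count table after doublet removal, all 3275 cells matched the annotation. The 18 epithelial sums were fitted with edgeR 4.0.16 in R 4.3.3 (quasi-likelihood test, TMM factors, filterByExpr, mouse as a term). The Benjamini-Hochberg adjustment took in 11013 genes, and a call needed an adjusted p under 0.05. The procedure was also run on simulated data, whose results are not given here, and nothing is concluded from that run. IEL were described only. Both sums of a comparison come from the same animal, which is where the pairing comes from: sums of 1 mouse deviated together in all 36 pairs of epithelial types (correlation 0.1187 to 0.6623, median 0.3127). A p-value sets the difference of a comparison against the spread left among the 18 sums once type and mouse are fitted. Each gene has 1 estimate of this spread, shared by all epithelial types, so it is not that of the compared types alone. Each SE was computed back from the log2 fold change and the F statistic of the test. It therefore holds no information beyond that test. Cells were thinned to 5000 UMIs for values per cell. Exact Poisson and binomial intervals cover counting error only. Reads shared between close paralogs, such as beta tubulins, are uncertain.

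The members and lists were chosen with earlier results of these data known. Genes were named by rule: in each role group the 3 members with the highest mean TA level, members whose highest epithelial type was not TA in both mice, and the 3 largest and 3 smallest fold changes of each further comparison. Other named members were chosen after their values were seen. Alternatives were RLE factors, DESeq2 1.42.0, no filter on low counts, no mouse term, 1 mouse at a time, stricter cell filtering (at least 2500 genes and at most 10 percent mitochondrial UMIs), thinning, Paneth cells left out and other types pooled.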

Additional observations from a re-analysis of the deposited data

How the results depend on the processing

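Of the alternatives for counts, medians, summed levels and shares, 91 left the value within 1.5 times or within the spread of the mice, and 25 moved it; none changed a direction. Pairing by mouse mattered most: without the replicate block 18 members rather than 47 were called in TA against stem cells, and 14 rather than 22 in stem against differentiated cells. For secretory progenitors, 22 members were called without the filter on low counts and 9 with stricter cell filtering. With thinned cells the median log2 fold change was 3.25 for TA against the other types and 1.67 for secretory progenitors. Those medians cover only the members still tested after thinning. Leaving out 1 mouse gives no test, since no residual degrees of freedom remain; medians then ranged from 1.99 to 2.18 for TA against stem and from 1.99 to 2.83 for goblet progenitors.

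Mean summed levels without mitochondrial UMIs were 3152 CPM in secretory progenitors, 994 in enterocytes and 1245 in goblet cells; with stricter cells, 3185, 1051 and 1254. Without Tubb4b, a choice made after seeing the data, they were 2578, 548 and 925, and 78.9 in Paneth and 2521 in tuft cells. Unthinned mean shares of cells with Ube2c were 90.5% in TA, 34.04% in stem and 11.0% in enterocytes, and with Top2a 85.9%, 28.0% and 3.21%.

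Reversals of single genes were sought only among those named by rule for each comparison, and further members changed sign between the mice. In stem against differentiated cells, 32 of 52 members were above 0 in both mice and 1 was below 0 in both. For secretory progenitors these counts were 44 and 4. Among the named genes, Psrc1 was reversed in TA against stem (-0.43 to 0.088 with 1 mouse left out). In stem against differentiated cells G2e3 (0.33 with stricter cells, -0.69 to 0.77 with 1 mouse left out), Gtse1 (-1.36 to 0.10) and Nuf2 (-0.49 to 2.70) were reversed. In secretory progenitors Bub1 was 0.32 and Ndc80 -1.62 with thinned cells. The cause was not tested. Stricter filtering left out types of under 10 cells, and thinning left 48 members tested.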
